A study of Mus musculus with 6 samples.

Results

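Actb, B2m, Gapdh, Hprt, Ppia and Tbp, 6 genes that laboratories commonly use as internal references when they compare RNA levels between samples, were followed across 6 microarrays of mouse heart biopsies. They were picked by name, as the probes that carry the RefSeq mRNA accession of one of these genes, which gave 6 probes, 1 per gene, of the 59709 probes on the array. Each biopsy was hybridized to its own Arraystar Mouse LncRNA Array v 2.0 with 1 dye. The mice were labelled C56BL7 females, 12 months of age. In mice 004 and 008, ischemic preconditioning (IPC) was applied as 4 cycles of 4 min of ischemia and 4 min of reperfusion, with 30 min of reperfusion before sampling, as the sample records give it. The methods of the study give the strain another name, and state another cycle length and mice of both sexes. The area at risk (AAR), the myocardium downstream of the occluded left coronary artery, and the remote myocardium (RM), cut from the right ventricle, were taken from each IPC mouse. The AAR of the sham-operated mice 012 and 013 made up the third group, so that every group held 2 arrays, and no RM of a sham mouse was among the samples.

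A reference gene is useful in so far as its RNA level stays level while others move, because any change in the reference is passed on, with its sign turned, to every gene divided by it. The 6 genes have unrelated tasks. Actb encodes cytoplasmic beta-actin of the cytoskeleton, B2m the light chain that MHC class I molecules need to reach the cell surface, Gapdh a glycolytic enzyme, Hprt an enzyme of purine salvage, Ppia the protein folding enzyme cyclophilin A, and Tbp the TATA-binding protein of the general transcription machinery. In heart tissue after ischemia, glycolysis, actin turnover and immune signaling are all processes that can be altered, which is why the choice of the reference is usually checked for each model.

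Comparisons between IPC and sham mice have a limit that no scaling removes. The 4 IPC arrays shared a slide and the 2 sham arrays were on the other slide, so treatment and slide cannot be told apart. In the comparison of AAR with RM, the ventricle and the exposure to the occlusions cannot be told apart either. The scanner software had further evened out signals across the surface on the sham arrays and not on the IPC arrays. Spots well above background numbered between 36699 and 48359 of 59994 per array, fewest on a sham array and most on an RM array. Of the genes listed to check the cell types of the biopsies (10 for cardiomyocytes, 4 for atria, 6 for blood, 3 for endothelium, 4 for fibroblasts), 0 had a probe that the files name by an mRNA accession. The tissue labels were therefore not checked against markers. In bulk RNA, fewer cells of a type and less RNA per cell cannot be told apart.

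All 6 probes were well measured. Each was printed in 20 spots per array, of which at least 14 were used after removal of outliers, all of them well above background and 0 saturated. The SD between spots of the same probe lay between 0.0226 and 0.212 log2 units, and the standard error of a gene's value on an array was at most 0.0474 log2 units, which was reached by Tbp. The signals that follow are geometric means over the spots of the processed signal, the brightness of the spot after background subtraction, in arbitrary units and without any scaling between arrays. Brightness depends on the probe as well as on the RNA, so levels of different genes are not set against each other here.

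Actb gave 19238 and 19761 units in the AAR of IPC mice 004 and 008, 14373 and 13876 in their RM, and 13494 and 9809 in the AAR of sham mice 012 and 013. B2m gave 96842.5 and 100815 units in the same AAR samples, 61480 and 58777 in the RM and 49993 and 54305 in sham hearts. For both genes the IPC AAR arrays were the brightest and did not overlap with those of either other group, and the pair of sham arrays differed most for Actb, by 0.46 log2 units. An exact permutation test on groups of this size cannot give a p below 0.333. Absence of overlap, here and below, is therefore given as description only. The share of all probes without overlap was not counted.

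Gapdh gave 353730 and 370484 units in the preconditioned AAR, 305896 and 299564 in the RM, and 277925 and 250261 in sham hearts. Ppia gave 75516 and 77872 units in the preconditioned AAR, 63896 and 60402 in the RM, and 58408 and 52618 in sham hearts. These 2 genes kept the same order of groups as B2m, IPC AAR above IPC RM above sham AAR with no overlap, over a narrower range: the brightest array was 1.48 times the dimmest for each of them, and 2.02 times for B2m.

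Hprt gave 14524 and 15733 units in the preconditioned AAR, 16703 and 15906 in the RM, and 12371 and 10802 in sham hearts. Here the RM arrays were the brightest, both by a small margin over the IPC AAR, and the sham arrays the dimmest. Tbp gave 282 and 316 units in the preconditioned AAR, 823 and 776 in the RM, and 478 and 505 in sham hearts. Tbp was thus the only one of the 6 to be dimmest in the IPC AAR, with sham arrays in the middle and RM arrays on top, no overlap between groups, and a span of 2.92 times between the dimmest and the brightest array.

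**Figure D1:**
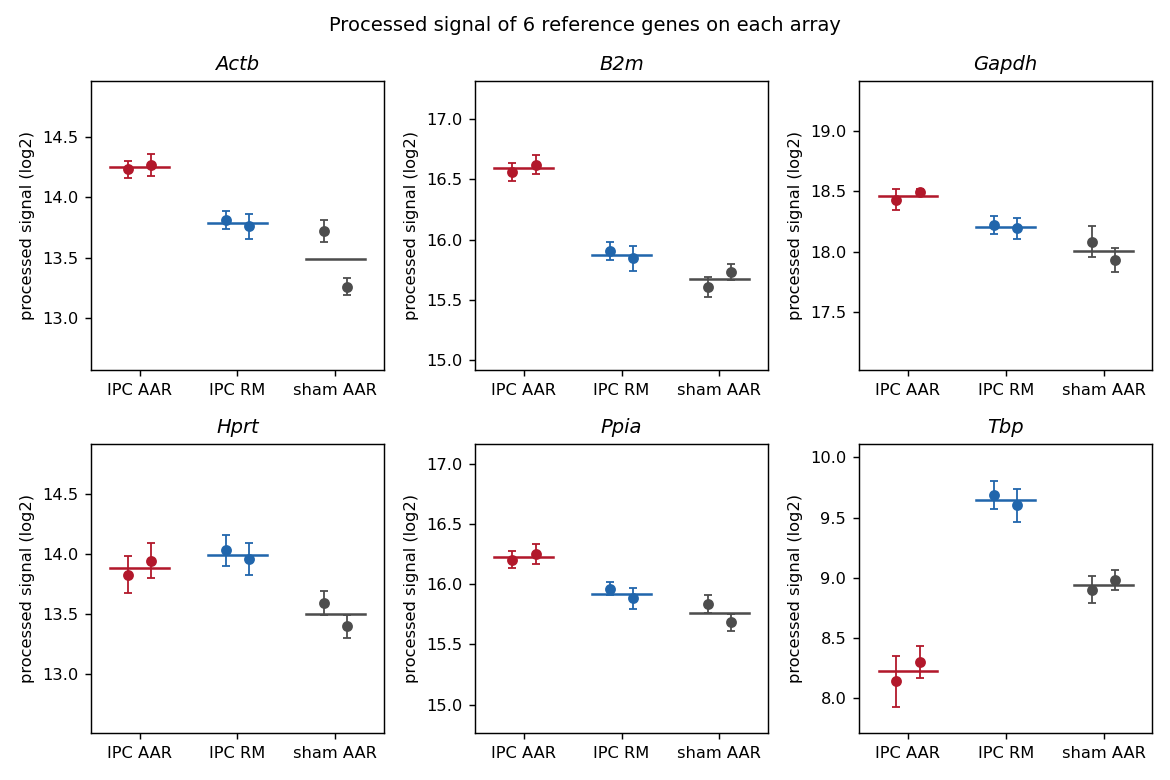
Processed signal (log2, unscaled) of each gene on the 6 arrays, 2 per group, as points with bars for the SD between spots and lines for the group means; every panel spans the same number of log2 units. Tbp sits lowest in the IPC AAR, at 282 and 316 units, and highest in the IPC RM, and the other 5 genes sit lowest in the sham AAR.

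The arrays as a whole differed in the same units, so the unscaled values carry those differences. The 75th percentile of all probes was 251 and 243 units on the IPC AAR arrays, 437 and 452 on the IPC RM arrays, and 234 and 273 on the sham AAR arrays. At the 99th percentile the order turned, with 101463 and 107400 units on the IPC AAR arrays, 83981 and 80546 on the IPC RM arrays, and 68975 and 65175 on the sham AAR arrays. Probes of medium brightness were thus dimmer in the IPC AAR than in the RM, and the brightest probes were brighter there. No single number per array can even out both ends, and 5 of the 6 genes lie near the bright end.

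The rank of a probe within its array does not depend on any such scaling. Gapdh stood between percentiles 99.90 and 99.94 on all 6 arrays, with 35 to 61 probes brighter. Ppia stood between 98.66 and 98.87, B2m between 98.64 and 98.99, Hprt between 96.33 and 96.57, and Actb between 96.07 and 96.85. Tbp ranged over 76.55 to 81.82, and its ranks in the IPC AAR (76.55 and 77.99) were below those on the other 4 arrays, the lowest of which was 80.59.

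Set beside all probes of equal rank, the genes fell into those that moved with the array and those that did not. Between IPC AAR and IPC RM, Ppia differed by 0.30 log2 units before scaling where the arrays at its rank differed by 0.26, Hprt by -0.11 where they differed by -0.06, and Gapdh by 0.26 where they differed by 0.12. Actb differed by 0.47 at a rank where the arrays differed by -0.06, and B2m by 0.72 where they differed by 0.28. Tbp differed by -1.42 log2 units at a rank where the arrays differed by -0.84.

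**Figure D2:**
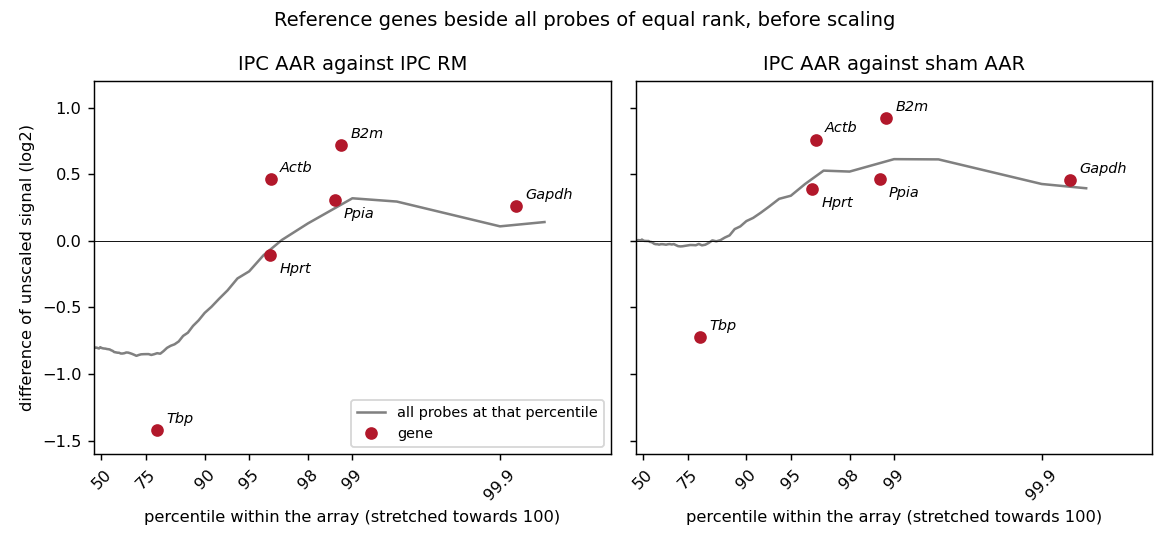
Difference in unscaled signal (log2) against the percentile of brightness within the array, for all probes (line, difference between group means of the same percentile) and for each of the 6 genes (points), in IPC AAR against IPC RM (left) and IPC AAR against sham AAR (right). Actb and B2m lie above the line and Tbp below it in both panels, while Hprt, Ppia and Gapdh lie close to it.

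The first comparison asked whether the reference genes differed between AAR and RM within the IPC mice. Quantile normalization, which gives all 6 arrays the same distribution of values and is the method the study names, was followed by limma over all probes that cleared the background flag on both arrays of 1 or both groups, with Benjamini-Hochberg adjustment, and a gene passed at an adjusted p below 0.05. Actb and B2m were higher and Tbp was lower in the AAR, and Gapdh, Hprt and Ppia did not pass. These 3 of 6 compare with 49.2% of the 46232 probes tested, so passing the test was about as frequent among the reference genes as among all probes. All 3 changes were smaller than 2-fold.

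On quantile-normalized log2 values, Actb stood at 14.10 and 14.08 in the AAR and at 13.58 and 13.57 in the RM. The difference was 0.51 log2 units (SE 0.07, 95% confidence interval 0.30 to 0.72, 1.43-fold, limma adjusted p = 0.0129). B2m stood at 16.29 and 16.28 in the AAR and at 15.87 and 15.86 in the RM, a difference of 0.42 (SE 0.07, interval 0.21 to 0.63, 1.34-fold, adjusted p = 0.0193). The groups did not overlap for either gene, and the rise was of almost equal size in each mouse, 0.52 and 0.50 for Actb and 0.42 in both mice for B2m.

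Tbp stood at 8.41 and 8.62 in the AAR and at 9.16 and 9.04 in the RM. It fell by 0.58 log2 units (SE 0.12, interval -0.92 to -0.24, 1.50-fold, limma adjusted p = 0.0268), with no overlap and with a difference of -0.74 in mouse 004 and of -0.42 in mouse 008. Gapdh differed by 0.13 (interval -0.09 to 0.36, adjusted p = 0.229), Hprt by -0.04 (interval -0.26 to 0.18, adjusted p = 0.679) and Ppia by 0.0016 (interval -0.21 to 0.22, adjusted p = 0.987). The intervals of these 3 genes in this unpaired fit thus leave room for differences of up to 0.36 log2 units. With the mouse as a replicate block they were wider. They ran from -0.25 to 0.52 for Gapdh, from -0.42 to 0.34 for Hprt and from -0.37 to 0.38 for Ppia.

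With 2 mice the calls were narrow. The records give each AAR and RM of equal number to a single animal. No gene listed for such a check had a probe named by an mRNA accession, and probes named otherwise were not used for it. Over all 46232 probes the deviations of the paired arrays correlated at -0.09. With the mouse as a replicate block 0 of the 6 genes passed, against 30.1% of all probes, with adjusted p of 0.0633 for Actb, 0.0786 for Tbp and 0.0842 for B2m. With 1 array left out, the lone array of its group has no spread of its own, so only differences are given. Actb then stood between 0.50 and 0.52 log2 units, B2m at 0.42 and Tbp between -0.69 and -0.48.

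Scaling each array to its 75th percentile gave another account of the same arrays. Actb was 2.49-fold, B2m 2.96-fold, Gapdh 2.16-fold, Hprt 1.67-fold and Ppia 2.23-fold higher in the AAR, and Tbp was 1.48-fold lower. All 6 passed in limma, with adjusted p between 0.00180 for B2m and 0.0265 for Tbp, against 54.8% of all probes. The median of the 6 differences was 1.13 log2 units, beside a median of 0.33 for all probes tested, whereas after quantile normalization these medians were 0.07 and 0.20. Hprt changed its sign between the scalings, from -0.04 to 0.74. With the mouse as a replicate block, 5 of the 6 genes passed under this scaling, against 49.5% of all probes, and Tbp did not (adjusted p = 0.0553).

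**Figure D3:**
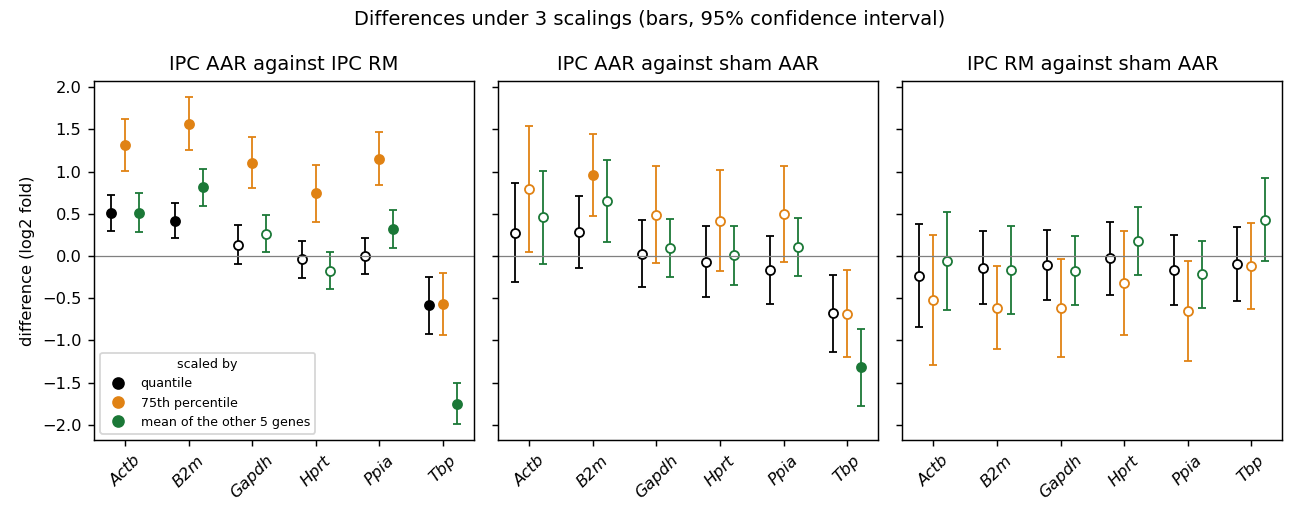
Log2 difference of each gene in the 3 comparisons after quantile normalization, after scaling to the 75th percentile and after scaling to the mean of the other 5 genes, with 95% confidence intervals from limma; filled points passed at an adjusted p below 0.05. In IPC AAR against IPC RM all 6 genes pass under the 75th percentile and 3 under quantile normalization, and Tbp is below 0 under all 3 scalings.

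The second comparison set the preconditioned AAR against the AAR of sham mice, with the same IPC AAR arrays as the first. After quantile normalization 0 of the 6 genes passed in limma, against 9.35% of the 40161 probes tested. At an unadjusted p below 0.05, 14395 of all probes would have passed. Tbp, at 8.41 and 8.62 in the IPC AAR and 9.25 and 9.13 in the sham AAR, had the largest difference of the 6, -0.68 log2 units (SE 0.16, interval -1.14 to -0.22, adjusted p = 0.0803), and its groups did not overlap. B2m differed by 0.28 (interval -0.14 to 0.71, adjusted p = 0.242) and Actb by 0.28 (interval -0.31 to 0.87, adjusted p = 0.377), the latter with sham arrays 0.44 apart from each other. Ppia differed by -0.16 (adjusted p = 0.445), Hprt by -0.07 (adjusted p = 0.756) and Gapdh by 0.03 (adjusted p = 0.887), and the interval of each of these 3 reached at least 0.24 log2 units on either side of 0.

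With arrays scaled to the 75th percentile, B2m was 1.94-fold higher in the preconditioned than in the sham AAR (limma adjusted p = 0.0397) and was the only one of the 6 to pass, against 14.3% of all probes. The median of the 6 differences was 0.50 log2 units, beside 0.33 for all probes, and -0.02 beside 0.23 after quantile normalization. Hprt and Ppia had positive differences under this scaling (0.42 and 0.50) and negative ones after quantile normalization, none of which passed. Over all probes, the calls split into 1284 higher and 2470 lower in the IPC AAR after quantile normalization, and into 2774 higher and 2956 lower with the 75th percentile.

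Between the IPC RM and the sham AAR, where region, treatment and slide differ together, 0 of the 6 genes passed after either scaling in limma, and neither did any other probe (0% of 46061). At an unadjusted p below 0.05, 7554 probes would have passed after quantile normalization and 7857 with the 75th percentile. All 6 genes had differences below 0, from -0.23 for Actb to -0.03 for Hprt after quantile normalization, and from -0.65 for Ppia to -0.12 for Tbp with the 75th percentile. This comparison shares its arrays with the other 2, and its values are not independent of theirs.

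The ratio of one reference gene to another within an array is unaffected by any scaling to a single number per array. It shows unequal change in the signals of the pair and does not tell which of the genes moved. On unscaled signals it also carries any unequal difference of the arrays at the ranks of its genes. Between IPC AAR and IPC RM the arrays differed by -0.84 log2 units at the rank of Tbp and by 0.28 at that of B2m. Ratios on quantile-normalized values, where given, have such differences evened out. Over the 6 arrays, the ratio of Gapdh to Ppia varied least of all 15 pairs: its log2 value was 2.23 and 2.25 in the AAR and 2.26 and 2.31 in the RM of IPC mice, and 2.25 on both sham arrays. Its SD was 0.03 log2 units and its largest value was 1.06 times its smallest. The group means of this ratio lay within 0.05 log2 units of each other on unscaled signals. On quantile-normalized values they lay up to 0.19 apart, between IPC AAR and sham AAR.

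The ratio of B2m to Tbp varied most. Its log2 value was 8.42 and 8.32 in the AAR and 6.22 and 6.24 in the RM of IPC mice, and 6.71 and 6.75 in sham hearts, a span of 4.60 times. The 5 ratios that contain Tbp were the 5 most variable of the 15, with SDs of at least 0.64 log2 units, while the other 10 had SDs of at most 0.39. Of ratios without Tbp, that of B2m to Hprt varied most, with log2 values of 2.74 and 2.68 in the AAR and 1.88 and 1.89 in the RM of IPC mice, and 2.01 and 2.33 in sham hearts. In both ratios the IPC AAR arrays lay above the other 4.

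From RM to AAR of the IPC mice, all 15 ratios differed in the same direction in both mice. The mice differed by at most 0.16 log2 units in any ratio. These 15 ratios share their genes and are not independent of each other. How often pairs of other probes had the same direction in both mice was not counted, so the agreement is given as description only. B2m was higher relative to each of the other 5 genes and Tbp lower relative to each of them on unscaled signals. On quantile-normalized values, which are not scaled by 1 number per array, 2 of the 15 ratios had the opposite direction, Actb over B2m at 0.09 instead of -0.25 log2 units and Gapdh over Ppia at 0.13 instead of -0.05, while those to Tbp kept theirs. The difference between AAR and RM in the ratio to Tbp was 4.40-fold for B2m, 3.70-fold for Actb, 3.30-fold for Ppia, 3.20-fold for Gapdh and 2.48-fold for Hprt, the smallest. On quantile-normalized values these folds were smaller, from 1.46 for Hprt to 2.14 for Actb, with B2m just below Actb, Gapdh at 1.64 and Ppia at 1.50. Among the others, B2m to Hprt differed by 1.77-fold, Actb to Hprt by 1.49-fold, B2m to Gapdh by 1.37-fold and B2m to Ppia by 1.33-fold. Gapdh to Ppia differed by 1.03-fold.

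These ratios were tested in limma across all probes, with the log2 value of one gene of the pair taken from each array, once for each of the pair as the reference. Of 15 pairs, 12 passed whichever gene was the reference. In the same fits 44.3% (Hprt as the reference) to 85.6% (B2m) of all probes were called, so passing was frequent among probes of any kind. The other 3 pairs were Actb with Gapdh (1.15-fold, adjusted p of 0.0685 and 0.0741), Actb with Ppia (1.12-fold, adjusted p of 0.117 and 0.139) and Gapdh with Ppia (adjusted p of 0.609 and 0.629). For Gapdh over Ppia the 95% confidence interval with Ppia as the reference ran from -0.28 to 0.19 log2 units. With the mouse as a replicate block 6 pairs passed either way, the 5 that contain Tbp and B2m with Hprt, 2 passed with 1 choice of the reference and 7 with neither. Of all 46231 probes, 66.6% were called in the blocked fit with Actb as the reference, 79% with B2m, 51.2% with Gapdh, 27.1% with Hprt, 52.3% with Ppia and 65.3% with Tbp. An exact two-sided permutation test on groups of 2 arrays cannot give a p below 0.333, and the 45 ratio tests of this kind (15 pairs in 3 comparisons) therefore have no power to pass.

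**Figure D4:**
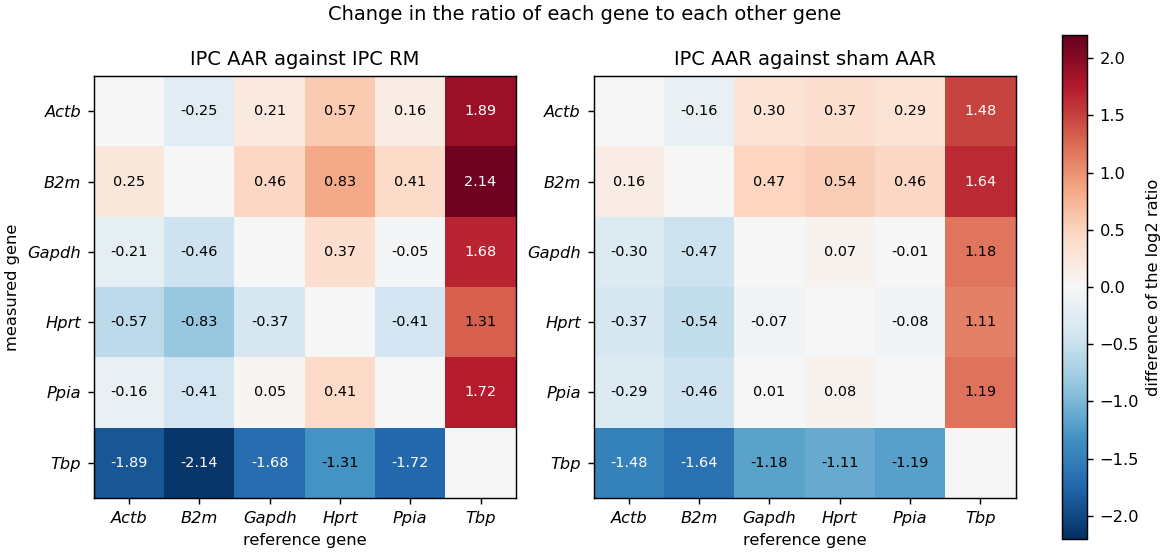
Difference between groups in the log2 ratio of each gene (row) to each other gene (column, the reference), for IPC AAR against IPC RM (left) and IPC AAR against sham AAR (right), with red for a higher ratio in the IPC AAR. The row of Tbp is blue throughout, from -2.14 to -1.31 in the left panel, the row of B2m is red throughout on these unscaled signals (Actb over B2m, -0.25 in the left panel, was 0.09 on quantile-normalized values), and Gapdh and Ppia differ from each other by 0.05 or less in both panels. On quantile-normalized values Gapdh over Ppia was 0.13 in IPC AAR against IPC RM and 0.19 in IPC AAR against sham AAR.

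Against the sham AAR, with the IPC AAR arrays shared with the previous comparison, the ratios to Tbp differed most. In the IPC AAR they were higher by 3.12-fold for B2m, 2.79-fold for Actb, 2.28-fold for Ppia, 2.26-fold for Gapdh and 2.15-fold for Hprt. On quantile-normalized values the folds were 1.95, 1.94, 1.43, 1.63 and 1.53 in the same order. With Tbp as the reference 69.7% of the 40160 probes were called, and with the other genes as the reference 4.88% (Hprt) to 40.1% (B2m). Of these 5 ratios, B2m, Ppia and Gapdh passed in limma with either gene as the reference (adjusted p between 0.00773 and 0.0419), and Actb and Hprt with Tbp as the reference only (adjusted p of 0.0100 and 0.00989, against 0.0594 and 0.0565 the other way). The 10 pairs without Tbp did not pass. The ratio of Gapdh to Ppia differed by 1.01-fold, Gapdh to Hprt by 1.05-fold and Hprt to Ppia by 1.06-fold, with limma adjusted p of at least 0.683. On quantile-normalized values these folds were 1.14, 1.07 and 1.07. Gapdh over Ppia and Hprt over Ppia turned their sign there, to 0.19 and 0.09 log2 units. Between the IPC RM and the sham AAR 0 of 15 ratios passed, with folds up to 1.45 for Ppia to Tbp (1.05 on quantile-normalized values).

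The study used Gapdh as the reference when it measured messenger RNA, long non-coding RNA and primary microRNA by quantitative PCR. Among these were measurements in AAR and RM biopsies of IPC mice. PCR is another assay, and for the long non-coding RNA Neat1 the study describes a separate group of mice. The shifts given here belong to the arrays and are no measure of those PCR results. How much a reference would shift the whole picture on these arrays was measured by scaling every array to 1 of the 6 genes. Between IPC AAR and IPC RM, the median of all probes then stood at -0.78 log2 units with Gapdh as the reference, -0.82 with Ppia, -0.98 with Actb, -1.24 with B2m, -0.41 with Hprt and 0.90 with Tbp. A probe of median behavior was therefore 1.71-fold lower in the AAR when judged against Gapdh and 1.87-fold higher when judged against Tbp. The share of probes called was 66.4% with Gapdh, 66.9% with Ppia, 76.7% with Actb, 85.6% with B2m, 44.3% with Hprt and 73.9% with Tbp. Of the calls, 1756 were higher and 28938 lower in the AAR with Gapdh, 3827 and 16675 with Hprt, and 28529 and 5621 with Tbp, so that the prevailing direction turned with the reference.

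Between IPC AAR and sham AAR the references lay closer together, with Tbp and B2m as the exceptions. The median of all probes was -0.16 log2 units with Gapdh, -0.17 with Ppia, -0.09 with Hprt, -0.46 with Actb, -0.62 with B2m and 1.02 with Tbp. The share of the 40160 probes called was 8.2% with Gapdh, 8.6% with Ppia, 4.88% with Hprt, 6.57% with Actb, 40.1% with B2m and 69.7% with Tbp. Between IPC RM and sham AAR 0% of 46060 probes were called with any of the 6 as the reference, and between 6862 (Actb) and 19377 (B2m) had an unadjusted p below 0.05.

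A common summary of fitness as a reference is the stability value M, the mean over the other genes of the SD of the log2 ratio to each of them, where a lower value means a steadier gene. On unscaled signals over the 6 arrays M was 0.281 for Gapdh, 0.285 for Ppia, 0.335 for Hprt, 0.346 for Actb, 0.420 for B2m and 0.822 for Tbp. Gapdh came first, Ppia second and Tbp last in all 14 ways of computing it over the 6 genes that were tried, among them leaving out each array in turn. Hprt and Actb changed places in some of them. On quantile-normalized values M was smaller for Tbp, at 0.409, and Actb (0.299) came after B2m (0.270). When the least steady gene was dropped step by step, Tbp left first, then B2m at an M of 0.275, Hprt at 0.216 and Actb at 0.167, and Gapdh and Ppia remained. M rewards genes that move together, and a pair that moved in step would score well even if both had changed. As it is built from ratios, M on unscaled signals also carries any unequal difference of the arrays at the ranks of the genes.

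The array carries 9 further genes printed in 20 spots, of which 8 cleared the background flag on every array, and they gave a broader frame. Over these 14 genes M was lowest for Hprt (0.317), followed by Rpl13a, a protein of the large ribosomal subunit (0.323), Gapdh (0.333) and Ppia (0.343). Actb had 0.391 and B2m 0.462, and Tbp was again the least steady (0.712), next to Tfrc, the transferrin receptor (0.629), and Nono, a nuclear RNA-binding protein (0.548). The order of the first 4 rests on differences of 0.03 in M or less.

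**Figure D5:**
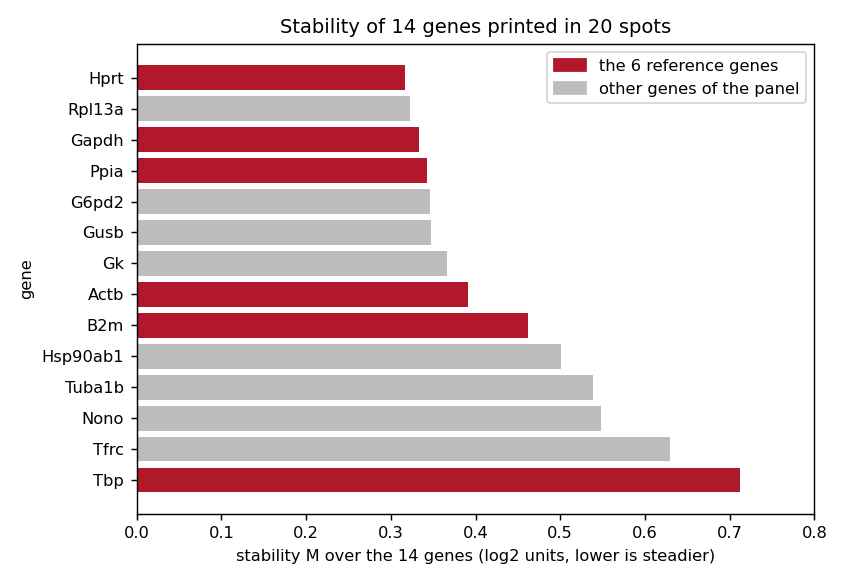
Stability value M (log2 units, lower is steadier) of 14 genes printed in 20 spots and well above background on all 6 arrays, each computed against the other 13 of them, with the 6 reference genes in red. Hprt, Gapdh and Ppia are among the 4 lowest bars and Tbp is the highest, at 0.712.

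Of 25 other genes in common use as references, 5 had a named probe: Gusb, a lysosomal enzyme, Hsp90ab1, a chaperone, and Rpl13a, Tfrc and Nono. Between IPC AAR and IPC RM 4 of these 5 passed after quantile normalization, where 49.2% of all probes did. Rpl13a (0.54 log2 units, adjusted p = 0.0122) and Tfrc (0.45, adjusted p = 0.0210) were higher in the AAR, and Hsp90ab1 (-1.01, adjusted p = 0.00355) and Nono (-0.71, adjusted p = 0.00696) were lower. Gusb differed by 0.19 (adjusted p = 0.115). With the 75th percentile Hsp90ab1 stood at 0.05 and Nono at -0.24, neither of which passed. Of the 5, 3 passed beside 54.8% of all probes. In these unpaired fits Tbp was the only one of all 11 reference genes to pass with a lower level in the AAR under both scalings. With the mouse as a replicate block Tbp passed under neither (limma adjusted p of 0.0786 and 0.0553). On unscaled signals Hsp90ab1 and Nono, like Tbp, were dimmest in the IPC AAR and brightest in the RM. Gusb, Rpl13a and Tfrc were dimmest in the sham AAR. Nono gave 3080 and 3256 units in the IPC AAR, 6788 and 6665 in the RM, and 3600 and 3742 in sham hearts. Against the sham AAR, 1 of the 5 passed after quantile normalization, Hsp90ab1 (-0.94, adjusted p = 0.0397), beside 9.35% of all probes, and 0 did with the 75th percentile, beside 14.3%.

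As a description of likeness, the SD of the log2 ratio over the 6 arrays was taken to each of 63 other genes named by an mRNA accession and well above background on all arrays. Nearest to Gapdh was Rpl13a (SD 0.08), followed by Hmgcs1, an enzyme of cholesterol synthesis (0.14). Nearest to Ppia were Rpl13a (0.09) and the amylase gene Amy2a5 (0.15). Both genes thus had each other, at 0.03, as a closer match than any of the 63. Hprt lay nearest to Tsnax, which encodes translin-associated factor X (0.05), and Dhrsx (0.07), B2m to Gm13305 (0.05) and Amy2a5 (0.14), and Actb to Ccl21c and Gm13304 (0.09 each). Amy2a5, Ccl21c, Gm13304 and Gm13305 belong to families of near-identical copies, so what their probes read is uncertain. Tbp had no close match, with Nono at 0.23 and Gm3286 at 0.25.

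The spread of each gene was last placed among the 34553 probes that were well above background on all 6 arrays. After quantile normalization the SD over the arrays was 0.06 log2 units for Hprt, and 0.669% of these probes had a smaller one. It was 0.07 for Gapdh (1.08% smaller), 0.09 for Ppia (2.28%), 0.20 for B2m (16.9%), 0.27 for Actb (31.3%) and 0.34 for Tbp (46.3%), beside a median of 0.36 over all of these probes. With the 75th percentile the order was another: Tbp had the smallest SD of the 6 (0.34, 38.2% smaller), followed by Hprt (0.36, 42.8%), and Gapdh (0.51, 67.9%), Ppia (0.53, 70.5%), Actb (0.63, 80.0%) and B2m (0.71, 85.1%) varied more than the median probe (0.40). Which gene looked steadiest on its own thus depended on the scaling, whereas the ratios between the genes are the same under every scaling to 1 number per array.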

How the data were processed

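Arrays were read by the authors with Agilent Feature Extraction (11.0.1.1 in the headers) after hybridization of Cy3-labeled cRNA. From what they deposited, the processed intensity of each spot was taken, which their software had background-subtracted and which was not yet normalized between arrays. On the 2 sham arrays it had also applied multiplicative detrending. A table of the whole series holds 6 columns of values that match no sample record and were not used. Annotation by accession matched 112 of 118 mRNA accessions to a symbol.

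Outlier spots were removed (17 to 29 on an array), replicate spots averaged as log2 values, and the 6 arrays quantile normalized in R 4.3.3 with limma 3.58.1 (lmFit and eBayes on the 4 arrays of a comparison, Benjamini-Hochberg adjustment). A probe was held to clear background where a share of 0.5 or more of its spots did. Ratios, ranks and M were computed in Python 3.11.15 with numpy 2.4.6, pandas 2.3.3 and scipy 1.17.1, and figures with matplotlib 3.10.9. The limma fit was tested on simulated data, drawn on the scale after quantile normalization with equal group means except for a set of changed probes. That test did not cover the scaling between arrays.

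Genes named were the 6, 25 other reference genes and genes of their pathways where a probe is named, and the 2 nearest named genes of each. The members and lists were chosen with earlier results of these data known. Of the pathway genes (glycolysis, actin cytoskeleton, MHC class I, purine salvage, cyclophilins, TFIID and polymerase II) and of the cell type, X inactivation, Y-linked and immediate early lists, 0 have a probe named by an mRNA accession. The X inactivation genes, Xist and Tsix, are non-coding and cannot have such an accession, so their 0 was fixed in advance. Xist, which the study lists among the long non-coding RNAs that differed between AAR and RM, was not examined here.

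AAR and RM of a mouse are paired by the records. The 004 minus 008 difference in AAR was correlated with the same difference in RM (r = -0.09 across 46232 probes, which are not independent). Precision is set by the few arrays. The limma p-values combine the spread between the 2 arrays per group with a spread shared over all probes. They therefore do not measure the spread between mice alone. For Actb between IPC AAR and IPC RM the SE was 0.07, while the SDs within these groups were 0.014 and 0.003 log2 units. The alternatives tried were other scalings (75th percentile, median of bright probes, the other 5 genes, Gapdh, quantile over 4 arrays), normexp with an offset of 50, filters on dim probes, the methods' t-test, a single fit of 6 arrays, an intensity trend, outlier spots kept, medians of spots, each array left out and the mouse as a block. Chosen after seeing the data were the signal before detrending, limma fits of ratios to each gene, with and without the block, and M over 14 genes.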

Additional observations from a re-analysis of the deposited data

How the results depend on the processing

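The number of the 6 genes that passed between IPC AAR and IPC RM was 3 after quantile normalization. It was 6 with the 75th percentile (54.8% of all probes) and with the median of bright probes (24391 of 46232 probes). It was 4 with the other 5 genes (Ppia added, limma adjusted p = 0.0396), where 21248 to 31943 of 46232 probes passed. With the intensity trend it was also 4 (Gapdh added, limma adjusted p = 0.0290). Scaled to Gapdh, 3 of the 5 remaining genes passed (B2m, Tbp and Hprt, which fell by 0.37), beside 66.4% of all probes. It was 2 (Actb and B2m) in the methods' t-test with Benjamini-Hochberg adjustment (Tbp adjusted p = 0.0894) and 1 (Tbp) in a single fit of 6 arrays. It was 0 with the mouse as a replicate block (30.1% of all probes) and 5 with the replicate block and the 75th percentile (49.5%). For the intensity trend, the t-test and the single fit the share of all probes is not given. Between IPC AAR and sham AAR it was 0, and 1 with the 75th percentile, the median of bright probes and the intensity trend (B2m each). It was also 1 with the other 5 genes, Gapdh and the single fit (Tbp each). Of all probes, 14.3% passed there with the 75th percentile and 8.2% with Gapdh. Of 40161 probes, 5431 passed with the median of bright probes and 1680 to 4459 with the other 5 genes. Between IPC RM and sham AAR it was 0 throughout. Mean M of the 6 genes was 0.415, 0.259 on quantile-normalized values, and 0.368 to 0.448 when each array was left out. Signs of the genes' own differences turned as follows (log2, none passing unless stated). In AAR against RM, Hprt stood at 0.74 with the 75th percentile (passing, also with the replicate block) and 0.71 with the median (passing), and Ppia at -0.000275 before detrending and between -0.0172 and 0.0204 when each array was left out. Against sham AAR, Hprt stood at 0.42 (75th percentile), 0.41 (median), 0.0091 (other 5 genes) and between -0.14 and 0.0082 when each array was left out, and Ppia at 0.50, 0.49, 0.11 and, against Gapdh, 0.011. In RM against sham AAR, Actb stood at 0.097, B2m at 0.0074, Hprt at 0.30 and Tbp at 0.50 against Gapdh. Hprt and Tbp stood at 0.18 and 0.43 against the other 5 genes, and Hprt at 0.017 (median of spots), 0.011 (before detrending) and between -0.10 and 0.048 when each array was left out. Ratios of 1 gene to another turned their sign in 9 of 45 cases on quantile-normalized values (2 of 15 in AAR against RM, Actb over B2m from -0.25 to 0.09 and Gapdh over Ppia from -0.05 to 0.13, 2 against sham AAR and 5 in RM against sham AAR, among them Actb over Gapdh from 0.097 to -0.13), in 2 with normexp, in 2 with outlier spots kept, in 0 with medians of spots, and in 0 to 3 of 30 when each array was left out. The cause was not tested, except that a scaling to a gene or a percentile moves all genes of an array alike by its construction. Tbp was lower and Actb and B2m were higher in AAR against RM under each alternative tried, other than Actb with B2m as the reference (-0.25, adjusted p = 0.0385). Scaling to spike-in controls was not run, since only 2 of 22 control probes qualified. No count of reads or depth applies to arrays, and all 6 genes were far above background. The limits that remain are 2 arrays per group, the dependence on the scaling, and the overlap of slide with treatment and of ventricle with exposure.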
